A study of Homo sapiens with 2 samples.

Results

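The major histocompatibility complex (MHC) on chromosome 6 held 343 of the 160327 accessible regions listed for H1 human embryonic stem cells. H1 is an established pluripotent line. The assay was ATAC-seq, which marks open DNA by the cuts and adapters a transposase leaves there, on frozen cells that were thawed, treated with DNase I and purified on Ficoll. The 2 samples, replicates 1 and 2, form 1 group without any treatment, and share 1 peak list, so no value had a replicate spread and no test over samples was possible. The labels do not say whether the replicates came from separate cultures. The members were the distinct regions with a summit in chr6:28500000-33500000 of the GRCh38 (hg38) genome, apart from 22 regions of the block chr6:31060000-31290000 around POU5F1. That block also holds HLA-C, which is therefore not described.

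The MHC holds the genes of the proteins that show peptides to T cells. Class I genes encode heavy chains that pair with beta-2-microglobulin on most nucleated cells, and class II genes encode the paired alpha and beta chains of professional antigen-presenting cells. Between them lies class III, a gene-dense stretch with complement genes, cytokines, heat shock genes and many genes that all cells use. Class II promoters share a conserved module of X and Y boxes, bound by the RFX complex and NF-Y, which recruits the co-activator CIITA. Class I promoters carry a related module that recruits NLRC5. Embryonic stem cells are known for low surface class I and for lacking surface class II.

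Reference promoter sequences of the HLA genes show this module. The 30 bases that end 41 bp before the start of 4 class I genes are given first, because all 4 share the box in capitals, CCAATC, the reverse complement of the Y box GATTGG that NF-Y binds.

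HLA-B (chr6:31357220-31357249, - strand): gatatctagagaagCCAATCagcgtcgccg
HLA-E (chr6:30489439-30489468, + strand): gtttctagagaagCCAATCagcgtcgccac
HLA-F (chr6:29723364-29723393, + strand): gtttctagagaagCCAATCagtgtcgccgc
HLA-G (chr6:29827755-29827784, + strand): ggtttttagagaagCCAATCagcgtcgccg

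For 11 class II genes the 120 bases that end 11 bp before the start are given, because genes with and without an accessible region can be compared in them. Capitals mark X box letters, AGNNACNGA, and the core of the Y box, ATTGG or its reverse complement CCAAT. The first 7 sequences hold both kinds of letters, and the last 4 lack the X box letters.

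HLA-DRB1 (chr6:32589859-32589978, - strand): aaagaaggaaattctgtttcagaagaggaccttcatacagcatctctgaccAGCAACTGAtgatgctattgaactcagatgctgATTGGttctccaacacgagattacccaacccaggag
HLA-DRB5 (chr6:32530298-32530417, - strand): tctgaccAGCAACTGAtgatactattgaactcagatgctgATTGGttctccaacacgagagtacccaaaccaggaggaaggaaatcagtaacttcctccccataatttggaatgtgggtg
HLA-DQA1 (chr6:32637276-32637395, + strand): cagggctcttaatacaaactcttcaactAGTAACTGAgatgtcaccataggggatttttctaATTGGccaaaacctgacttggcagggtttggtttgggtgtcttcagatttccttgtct
HLA-DQB1 (chr6:32666668-32666787, - strand): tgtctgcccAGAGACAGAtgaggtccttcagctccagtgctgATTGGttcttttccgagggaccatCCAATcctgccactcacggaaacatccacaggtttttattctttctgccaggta
HLA-DMA (chr6:32953108-32953227, - strand): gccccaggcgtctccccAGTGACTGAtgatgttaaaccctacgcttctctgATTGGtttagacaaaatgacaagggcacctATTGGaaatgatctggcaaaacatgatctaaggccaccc
HLA-DMB (chr6:32941039-32941158, - strand): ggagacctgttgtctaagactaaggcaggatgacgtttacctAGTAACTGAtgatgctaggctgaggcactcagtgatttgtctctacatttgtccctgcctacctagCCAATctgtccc
HLA-DOA (chr6:33009602-33009721, - strand): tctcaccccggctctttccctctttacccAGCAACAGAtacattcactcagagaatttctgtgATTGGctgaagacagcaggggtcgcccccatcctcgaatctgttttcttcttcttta
HLA-DPB1 (chr6:33075860-33075979, + strand): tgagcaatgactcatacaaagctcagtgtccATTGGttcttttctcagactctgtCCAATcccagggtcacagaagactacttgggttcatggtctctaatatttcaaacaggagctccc
HLA-DQA2 (chr6:32741261-32741380, + strand): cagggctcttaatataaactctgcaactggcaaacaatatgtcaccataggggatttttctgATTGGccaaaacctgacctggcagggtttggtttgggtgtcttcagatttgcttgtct
HLA-DQB2 (chr6:32763543-32763662, - strand): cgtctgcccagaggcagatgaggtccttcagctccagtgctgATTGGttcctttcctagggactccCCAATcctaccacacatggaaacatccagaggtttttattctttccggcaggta
HLA-DOB (chr6:32817013-32817132, - strand): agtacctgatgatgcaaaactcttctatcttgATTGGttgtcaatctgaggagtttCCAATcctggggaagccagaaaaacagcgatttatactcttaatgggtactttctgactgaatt

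Accessible regions were denser in the MHC than in the genome at large, and far more of them lay at gene starts. The MHC had 71.9 regions per Mb (95% exact Poisson interval 64.5 to 79.9), against 62.2 on the rest of chromosome 6 and 54.6 in the whole list. Of the 343 regions, 149, or 43.4% (exact binomial interval 38.1 to 48.9), had their summit within 1000 bp of the canonical start of an annotated gene. The share was 10.4% on the rest of chromosome 6 and 13.8% in the whole list. The median fold, the authors' enrichment of the strongest summit over an unstated background, was 5.94 in the MHC and 5.38 in the whole list. Intervals cover counting error only. No values per library or depths were analysed here, and a region open in a few cells cannot be told apart from one weakly open in all of them.

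The 5 parts of the complex differed in number and place of regions. Extended class I, the tRNA and olfactory receptor end up to MOG, held 81 regions or 69.1 per Mb (54.9 to 85.9). Class I, from there to MICB, held 116 or 72.1 per Mb (59.6 to 86.5). Class III, up to the 5′ end of NOTCH4, held 63 or 88.4 per Mb (67.9 to 113). Class II had the fewest per length, 50 regions or 53.3 per Mb (39.5 to 70.2), and extended class II, from COL11A2 on, held 33 or 97.8 per Mb (67.3 to 137). The intervals of class II and class III overlapped slightly.

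**Figure D1:**
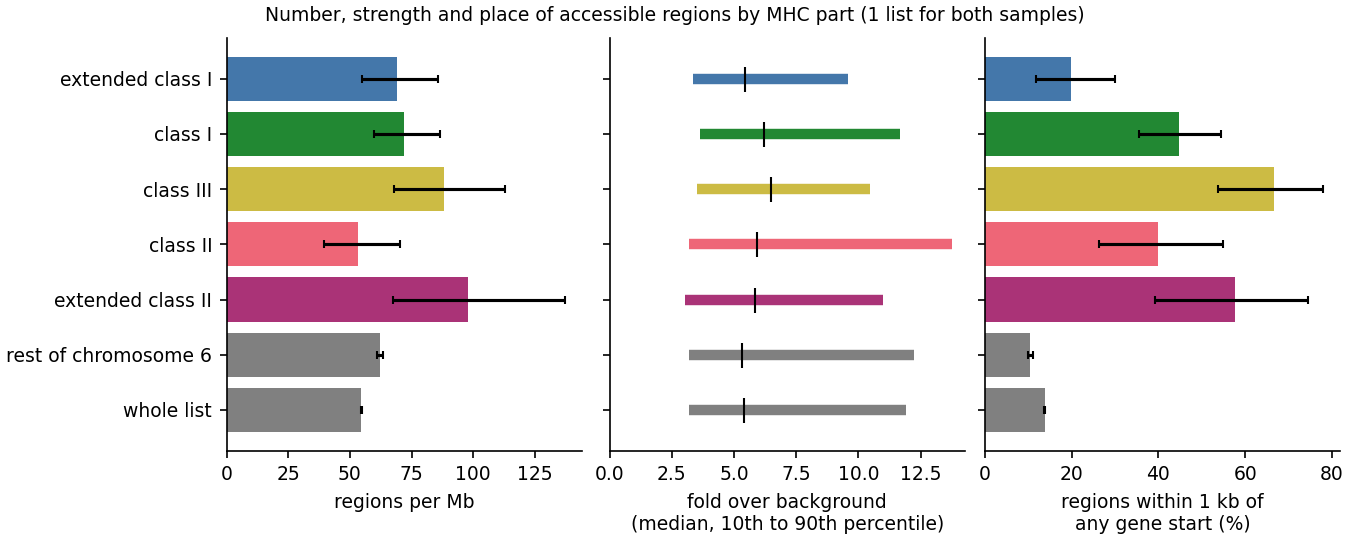
Regions per Mb, fold over background and share of regions within 1000 bp of any gene start, for each MHC part, the rest of chromosome 6 and the whole list. Bars with lines are values with 95% exact intervals for counting error; in the middle panel the black mark is the median and the coloured line runs from the 10th to the 90th percentile. Class III has the highest share at gene starts, 66.7%, and extended class I the lowest of the MHC, 19.8%.

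Regions at gene starts made up 66.7% of class III, 57.6% of extended class II, 44.8% of class I, 40% of class II and 19.8% of extended class I. The median fold ran from 5.45 in extended class I to 6.47 in class III. Class II had few regions but a long upper tail: 10 of its 50 regions, or 20%, lay above the 90th percentile of fold of the whole list (11.9), against 28 of 343, or 8.16%, in the whole MHC.

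**Figure D2:**
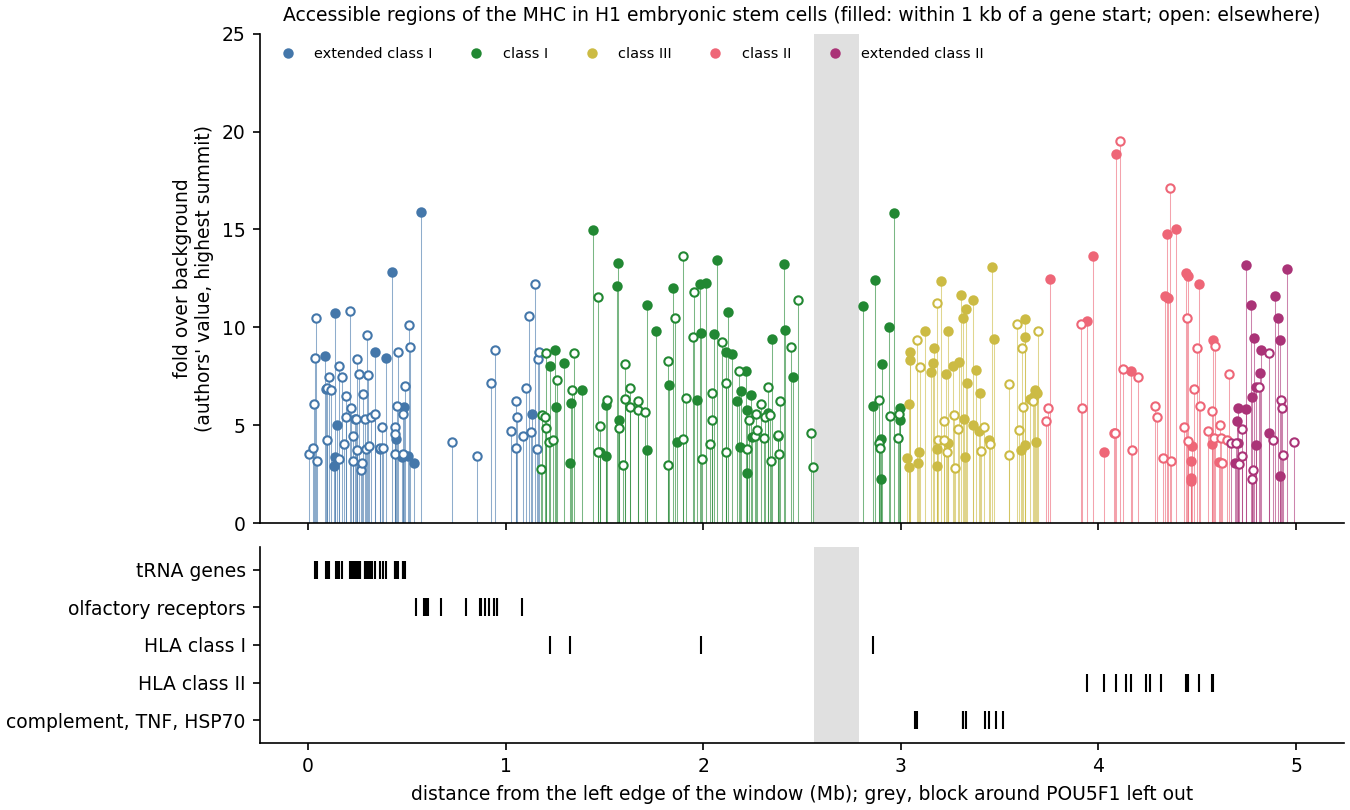
Fold over background of every MHC region (upper panel) against distance from the left edge of the window in Mb, coloured by part, with filled points within 1000 bp of a gene start. The lower panel marks the starts of named gene groups. The highest points, 19.5 and 18.9, lie in class II near HLA-DRB1, and few regions lie among the olfactory receptors.

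The class I genes HLA-B, HLA-E, HLA-F and HLA-G all had an accessible promoter. A promoter counted as accessible when any summit lay within 1000 bp of the gene's canonical transcript start, which held for 76.8% of all protein-coding genes. HLA-E, whose product engages NKG2 receptors of natural killer cells, had 9.73 at 34 bp before the start. HLA-F had 8.03 at 120 bp before the start. HLA-B, the heavy chain of a classical molecule that presents peptides to CD8 T cells, had 5.99 at 91 bp before the start, in a region of 5 summits. A separate region of 12.4 lay 9856 bp upstream, at another annotated start of the gene and 22 bp from the start of a non-coding RNA named only by its identifier.

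HLA-G, which is known from placental trophoblast, was the weakest of the 4 at the start itself. Its summit 91 bp before the start had a fold of 3.08, and a stronger one of 6.16 lay 733 bp inside the gene. That stronger summit was nearer to another start, 194 bp before that of the pseudogene HCG4P8. The CCAATC letters printed above lay between 57 and 51 bp before the start in all 4 genes, and the summits between 34 and 120 bp before it. The 2 class I-like stress ligands recognised by NKG2D were also accessible, MICA at 8.12 and MICB at 5.90. Of 11 class I pseudogene symbols in the annotation, 4 had a region: HLA-L at 9.80, HLA-V at 8.16, HLA-H at 6.80 and HLA-J at 6.04. HLA-K, HLA-N and HLA-P were among the 7 without one. The share of all pseudogenes with a region was 9.95%, and in the MHC 25 of 104, or 24.0% (16.2 to 33.4), had one. 

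Of the 13 HLA class II genes 9 (69.2%) had an accessible promoter in these cells, against 76.8% of all protein-coding genes. With only summits above the list's median −log10 p, 7 of the 13 did, against 70.9% of all. HLA-DRB1, a beta chain of HLA-DR, had the highest fold of any protein-coding promoter in the MHC, 18.9, percentile 99.3 of the list, in chr6:32589591-32590024 with the summit 24 bp before the start. HLA-DRA, its alpha chain partner, had 10.3 at 44 bp before the start. The peptide-loading catalyst HLA-DM was accessible at both chains, with 12.8 at HLA-DMB and 12.6 at HLA-DMA. HLA-DOA, a chain of the HLA-DM inhibitor HLA-DO, had 12.2, while its partner HLA-DOB had none, the nearest summit being 9051 bp upstream.

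The remaining pairs were uneven. HLA-DQB1 had 7.78 at 65 bp before the start, whereas HLA-DQA1, its alpha chain partner, had none, the nearest summit being 14767 bp upstream. HLA-DQA2 and HLA-DQB2, a further pair with restricted expression, had none, and lay together in a stretch of 85.1 kb without any region. HLA-DPB1 had 4.06, and HLA-DPA1 had 3.70 at 15 bp before the start and 9.37 at 331 bp inside the gene. That canonical start of HLA-DPA1 lies downstream of the HLA-DPB1 start, on the opposite strand. The 120 bases that end 11 bp before it (chr6:33080721-33080840) hold neither X box letters nor a Y box core, and are not printed above. A separate region lay 2267 bp upstream of HLA-DPB1. Which start of HLA-DPA1 is in use was not tested. HLA-DRB5, another DR beta chain, had 3.62, the lowest of the 9.

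**Figure D3:**
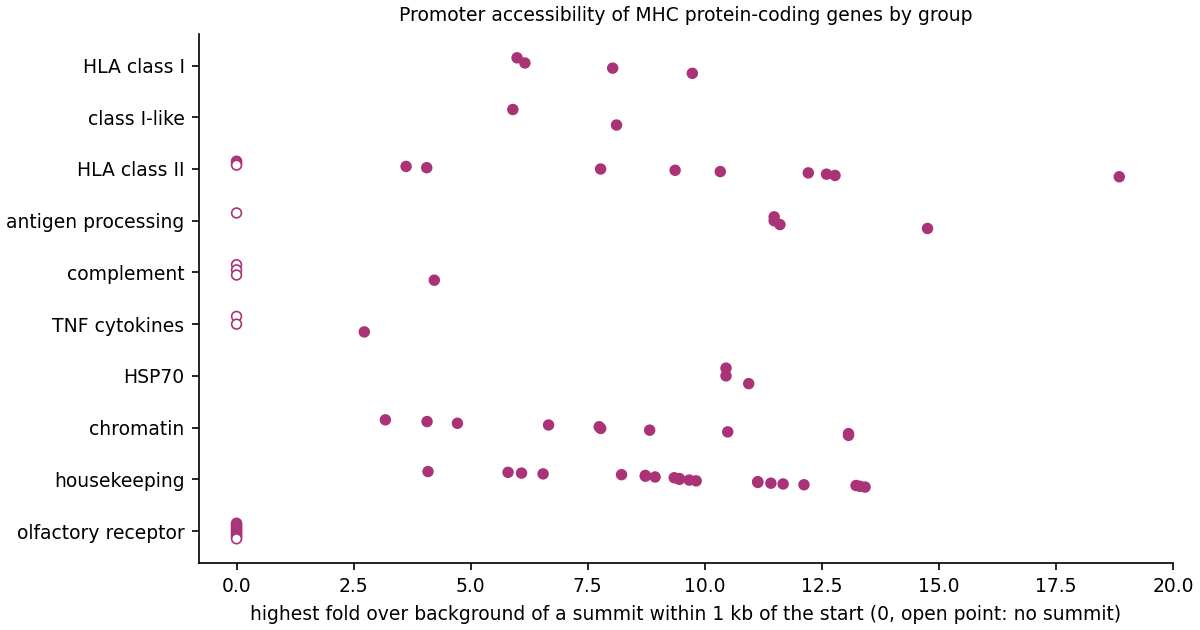
Highest fold over background of a summit within 1000 bp of the canonical start, for the protein-coding MHC genes described in 10 gene groups; each point is a gene, and open points at 0 have no such summit. HLA-DRB1 lies farthest right at 18.9, all 21 housekeeping genes have a region, and all 14 olfactory receptor genes are at 0.

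These class II promoters were accessible although they were poor in CpG. The ratio of observed to chance CpG within 500 bp of the start was under 0.4 at 12 of the 13 genes, and 8 of those 12, or 66.7% (34.9 to 90.1), had a region. Across the genome 25.7% of protein-coding genes with a ratio under 0.4 had one, and 93.6% of those at 0.4 or more. Without the HLA class II genes, 13 of 68 CpG-poor genes of the MHC had a region (19.1%, 10.6 to 30.5), and with them 21 of 80 (26.3%, 17.04 to 37.3). By part, CpG-poor genes with a region numbered 9 of 15 in class II (60%, 32.3 to 83.7), 11 of 33 in class III (33.3%, 17.96 to 51.8), 1 of 3 in extended class II, 0 of 9 in class I and 0 of 20 in extended class I, of which 14 are olfactory receptor genes. Of the other genes of the whole MHC 89 of 95 (93.7%) had one. The threshold of 0.4 was chosen after the data were seen.

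The X and Y letters coincided with these regions. An X-Y composite, AGNNACNGA followed after 10 to 30 bases by ATTGG on the same strand, occurred within 100 bp of the summit in 6 of the 50 class II regions (12%) and in 0 regions of the other parts. In the whole list 251 of 160327 regions (0.157%) held it. The 6 were the regions of HLA-DRA, HLA-DRB1, HLA-DQB1, HLA-DMA and HLA-DOA and 1 at the pseudogene HLA-DRB9. Within 200 bases before the start, 7 of 13 class II genes held it, against 26 of 20033 protein-coding genes in all, and 6 of those 7 had a region, HLA-DQA1 being the exception. These letters were written down after reading the class II sequences, so the counts describe those genes and support nothing. The shorter X box string TAGCAAC lay within 50 bp of 0.875% of MHC summits and 1.44% of all.

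The region at HLA-DRB9, a gene fragment, was stronger than those of 8 of the 9 protein-coding HLA class II genes with an accessible promoter, HLA-DRB1 being the exception. It spanned chr6:32473401-32474008, reached 13.6 and lay 154 bp before the annotated start. The 151 bases around its summit are shown because 94 of them in a row are identical to the HLA-DRB1 window printed above.

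HLA-DRB9 region (chr6:32473579-32473729, - strand): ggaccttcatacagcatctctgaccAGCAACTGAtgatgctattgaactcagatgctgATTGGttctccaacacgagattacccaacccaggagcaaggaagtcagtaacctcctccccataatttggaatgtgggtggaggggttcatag

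The same bases matched the HLA-DRB5 window at 114 of 120 aligned positions (95%), with the longest identical run at 39 bases. Reads that fall within the shared stretch cannot be assigned to either copy. Of the 50-mers in the HLA-DRB9 region 14.97% occurred more than once in the reference genome, and in the HLA-DRB1 region 23.04%, while the remainder were unique. How the authors treated reads with several matches is not given in the sources used here.

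Class II also differs between haplotypes, and hg38 is not the sequence of H1. Within 1000 bp of the starts of HLA-DRB1, HLA-DRB5, HLA-DQA1 and HLA-DQB1, 11.4%, 10.1%, 2.50% and 4.70% of the reference 50-mers occurred in the gapless alternate MHC sequence of hg38. The shares were 97.5% at HLA-DMA and HLA-DMB and 100% at HLA-DOB. Which haplotypes H1 carries was not analysed here, and the part of such divergence in any fold or missing region was not tested.

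The strongest region of the whole MHC lay outside promoters. It spanned chr6:32609768-32610399, 20134 bp upstream of HLA-DRB1 on the side of HLA-DQA1, with a fold of 19.5, percentile 99.5 of the list. Its summit sequence is shown because it holds Y box cores, in capitals, but no X-Y composite.

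Region between HLA-DRB1 and HLA-DQA1 (chr6:32609907-32610057, + strand): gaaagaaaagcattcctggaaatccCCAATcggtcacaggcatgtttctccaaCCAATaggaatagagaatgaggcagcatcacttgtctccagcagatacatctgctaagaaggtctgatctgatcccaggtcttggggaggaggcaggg

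None of its 50-mers was repeated in the reference. Another intergenic region, chr6:32861089-32861645, 7101 bp downstream of the PSMB9 start, had 17.1. The next class II region away from gene starts had 10.5, in an intron 5116 bp downstream of the HLA-DMA start (chr6:32947838-32948120). It was followed by 10.2 upstream of BTNL2 (chr6:32413259-32413959), which held a CTCF core, and 9.05 near the pseudogene HLA-DPA2. The widest class II region, 1456 bp at chr6:32893801-32895256, covered the start of a long non-coding RNA named only by its identifier, with 15.03. The next widest were 1408 bp at TSBP1-AS1 and 1354 bp near HLA-DPB2.

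The antigen processing genes serve class I, and all but TAPBP lie inside class II. Of the 5, 4 (80%) were accessible, close to the 76.8% of all protein-coding genes. TAP1 and TAP2 encode the transporter that carries peptides into the endoplasmic reticulum, and PSMB8 and PSMB9 encode immunoproteasome subunits. TAP1 and PSMB9 shared a region, chr6:32853434-32854649, with 2 summits of 11.5 and 7.76. TAP2 had 11.6 at 88 bp before the start. PSMB8 had 14.8, with the summit 716 bp before the start. TAPBP, the tapasin gene, which lies in extended class II, was the 1 of 5 without a summit at its canonical start. Its nearest lay 1209 bp inside the gene with 6.97, at another annotated start.

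Genes of the factors that act on these promoters, with B2M and CD74, lie on other chromosomes or outside the window. All of them, 11 of 11, had a region, against 76.8% of all protein-coding genes. NLRC5, the class I co-activator, had 6.15, and CIITA, the class II co-activator, had 5.17. The RFX subunits had 11.99 (RFXAP), 10.4 (RFX5) and 10.4 (RFXANK). The NF-Y subunits had 12.1 (NFYB), 10.1 (NFYC) and 8.11 (NFYA), and CREB1, which binds next to the X box, had 12.1. B2M, which encodes beta-2-microglobulin, had 14.5. CD74, the invariant chain that guides class II molecules, had 3.92, the lowest of the 11.

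Markers of other cell types were checked in the same list. Of all protein-coding genes 76.8% had a region at the canonical start. Of 8 pluripotency markers 7 had a region at the canonical start, and POU5F1 had one only at another start. Of 8 blood and antigen-presenting cell markers 2 had one, CIITA and CD74 above. PTPRC, CD3E, CD14, SPI1 and ITGAX had no region at any annotated start. Of 4 fibroblast markers 3 had one: DCN at 8.26, THY1 at 5.95 and LUM at 4.24. COL3A1 had none. The part of any other cells in the class II regions was not tested.

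Class III regions lay mostly at promoters, 37 of 63 at one of a protein-coding gene. Of the 67 protein-coding genes of class III 43 (64.2%, 51.5 to 75.5) had an accessible promoter, and 29 of 41 in class I (70.7%), 16 of 22 in class II (72.7%), 18 of 21 in extended class II (85.7%) and 4 of 24 in extended class I (16.7%, 4.74 to 37.4). In the whole MHC 110 of 175 had one (62.9%, 55.2 to 70.03), below the 76.8% of all protein-coding genes. All 21 genes of the housekeeping list were accessible, led by ABCF1 (13.4), a translation factor, PPP1R11 (13.3), a phosphatase inhibitor, and GTF2H4 (13.2), a TFIIH subunit. All 10 chromatin and RNA genes were too, led by NELFE and SKIC2, which share a region of 13.1 between their opposed starts, and PHF1 (10.5), a Polycomb partner.

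Several MHC promoters were shared in this way. In 15 cases 1 region lay at the starts of 2 or more annotated protein-coding genes, 7 of them in class III. The longest MHC region, 2363 bp with 8 summits at chr6:30555388-30557750, lay at the opposed starts of GNL1 and PRR3 in class I. The widest of class III were 1562 bp at CSNK2B, 1525 bp at BAG6 and 1489 bp at PPT2. Those of extended class II were 1484 bp at PHF1 and 1386 bp at COL11A2, those of extended class I were 1844 bp at HCG14, 1581 bp at TRIM27 and 1509 bp at GABBR1, and those of class I after GNL1 were 1699 bp at HCG17 and 1640 bp at HLA-F.

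The stress and inflammatory genes of class III split. The 3 HSP70 genes were accessible, against 76.8% of all protein-coding genes, and the labels name no heat treatment. HSPA1B had 10.9, and HSPA1A and HSPA1L shared a region of 10.5. Between 28.8% and 39.7% of the 50-mers around these 3 starts were repeated in the genome, since HSPA1A and HSPA1B are near-identical copies, so their folds are uncertain. TNF and LTA, the genes of the cytokines TNF and lymphotoxin alpha, had no summit at the start, and lay in a stretch of 33.0 kb without one. LTB, the lymphotoxin beta gene, had a weak summit of 2.73 at 723 bp inside, in a region whose strongest summit, 9.37, lay 1389 bp inside the gene.

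Of the complement genes 1 of 4 was accessible at its canonical start, against 76.8% of all protein-coding genes. CFB, encoding factor B, had 4.22. C2 had none there and 4.72 at another annotated start. C4A and C4B had none. They lie with CYP21A2, the steroid 21-hydroxylase gene, in a stretch of 73.7 kb without a region, chr6:31972857-32046557. All 50-mers within 1000 bp of the C4A and C4B starts (100%) occurred more than once in the genome, as did 55.3% of those at CYP21A2 and 81.8% of those in the whole stretch. The part of this duplication in the missing regions was not tested. The flanking genes were accessible, STK19 at 9.40 on one side and ATF6B (10.4) and FKBPL (9.51) on the other.

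**Figure D4:**
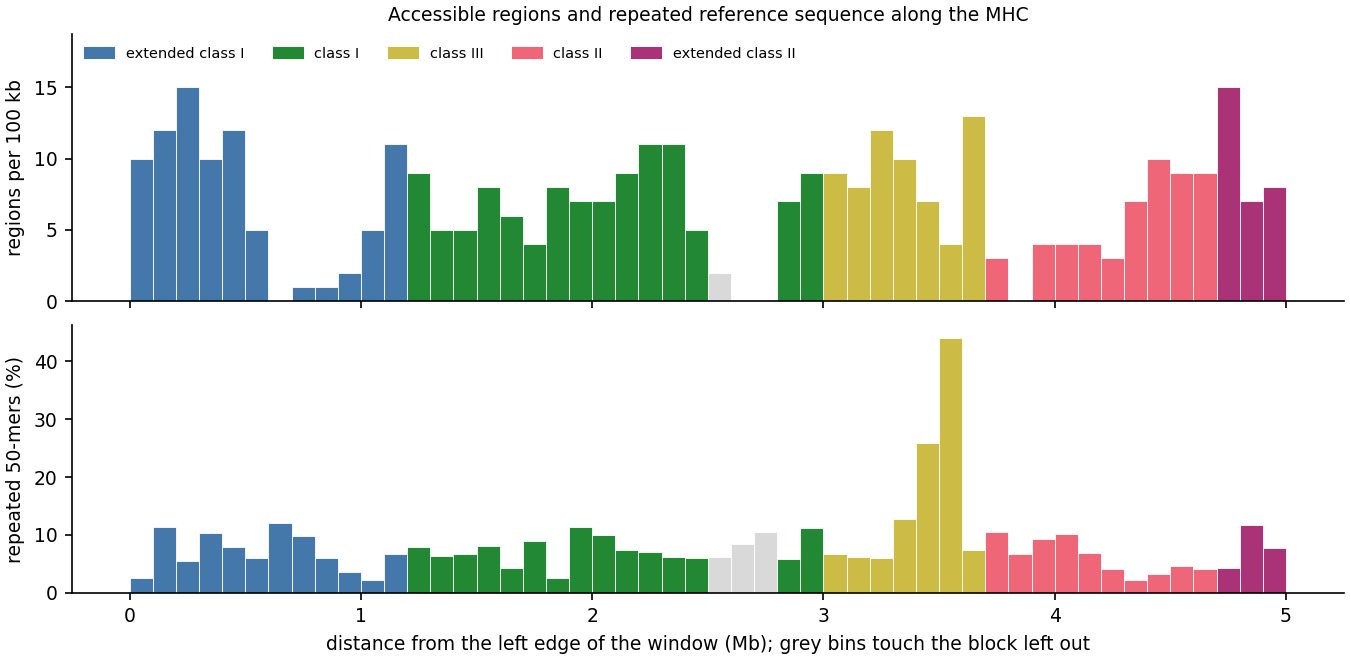
Number of accessible regions (upper panel) and share of reference 50-mers found more than once in the genome (lower panel) in 100-kb bins, against distance from the left edge of the window in Mb; grey bins touch the block left out. The highest share of repeated 50-mers, 44.01%, lies in class III beside the C4 genes, and the bins with 0 regions outside the block have 12.03% in extended class I and 6.75% in class II.

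Repeated sequence was also counted in the other long empty stretches, beside the share of their part. By part, 15.3% of 50-mers were repeated in class III, 7.53% in class I, 7.16% in extended class II, 6.96% in extended class I and 6.42% in class II. The longest stretch, 157.2 kb at TSBP1 and BTNL2 at the left of class II, had 9.47% repeated 50-mers. The next, 153.6 kb over OR2B3, OR2J1, OR2J3 and OR2J2, had 9.48%, 129.2 kb at OR14J1 had 9.58%, and 77.0 kb at OR11A1, OR2H1 and MAS1L had 2.81%. The HLA-DQA2 and HLA-DQB2 stretch had 4.41%, and the 56.1 kb left of HLA-DRB5 had 9.96% but only 13.02% of its 50-mers in the alternate sequence. Of these 6 stretches, 4 lay above the share of their part and 2 below it, and the part of repeats in them was not tested. The median distance between neighbouring regions was 7.27 kb in the MHC and 10.2 kb in the whole list. In class I the longest stretches were 60.3 kb over the mucin genes MUC21 and MUC22, 58.9 kb and 53.4 kb without protein-coding starts, in class III, besides the longer one that holds the C4 genes, 38.5 kb with no protein-coding start and 38.2 kb at NOTCH4, and in extended class II 40.8, 37.4 and 21.5 kb.

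The olfactory receptor cluster of extended class I was closed at every gene start. None of 14 receptor genes, OR10C1, OR11A1 and OR12D1 among them, had a summit within 1000 bp, which bounds the share at 23.2% by the exact interval. All 14 were poor in CpG, with a ratio under 0.4. Of such genes 25.7% had a region across the genome, just above that bound. In the MHC without the olfactory receptor genes 21 of 66 did (31.8%, 20.9 to 44.4). Within that cluster 1 region stood out, chr6:29071967-29072467 at the start of the receptor pseudogene OR2P1P, with 15.9, the highest fold of extended class I. It was singled out after its value was seen.

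Transfer RNA genes filled the other end of extended class I. The MHC window held 40 tRNA genes of RefSeq, all in extended class I, and 29 (72.5%, 56.1 to 85.4) had a summit within 250 bp of the gene's middle, close to the 73.4% of all 443 tRNA genes. The comparison was added after the data were seen. Their median fold was 5.86 (3.51 to 10.9), against 5.11 over all accessible tRNA genes. By a looser measure, any base of a region rather than a summit, 33 of the 81 extended class I regions lay within 250 bp of a tRNA gene's middle. The genes below are shown as an accessible alanine gene, a methionine gene that exists in identical copies, and a phenylalanine gene without a region. Capitals mark the B box letters GTTCGANNC of the internal promoter of RNA polymerase III.

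TRA-AGC1-1 (chr6:28795964-28796035, - strand): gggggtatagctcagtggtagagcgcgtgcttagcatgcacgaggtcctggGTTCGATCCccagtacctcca
TRM-CAT3-2 (chr6:28953265-28953337, - strand): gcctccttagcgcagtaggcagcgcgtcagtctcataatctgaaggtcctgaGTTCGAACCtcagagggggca
TRF-GAA1-1 (chr6:28790722-28790794, - strand): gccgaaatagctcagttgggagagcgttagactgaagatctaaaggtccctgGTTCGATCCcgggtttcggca

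Amino acids differed. Of the alanine tRNA genes 13 of 15 had a region, among them TRA-AGC5-1 at 10.9 and TRA-AGC1-1 at 9.60, against 11 of 18 alanine genes elsewhere. Of the phenylalanine genes 0 of 6 had one, against 5 of 5 elsewhere in the genome. For 5 of those 6 the nearest summit was 885 bp or more away, and at TRF-GAA1-2 it was 456 bp away, nearer to TRE-CTC1-6, a glutamate gene with 3.51. TRF-GAA1-1 and TRF-GAA1-2 have the same sequence, so these 2 are not independent. The B box letters were present in these 2 and in TRF-GAA5-1, and absent from TRF-GAA3-1, TRF-GAA4-1 and TRF-GAA6-1. They were also absent from some accessible genes, TRA-AGC5-1 among them. All 4 leucine and all 3 arginine genes had a region, against 19 of 28 and 21 of 23 elsewhere. The 1 valine gene had none, and 1 of 2 threonine and 1 of 2 methionine genes had one. The glutamate, isoleucine, lysine, glutamine and serine genes all had one. Most of these counts are too small to tell amino acids apart.

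Identical tRNA genes were not always in the same state. TRM-CAT3-1 and TRM-CAT3-2 have the same sequence, and TRM-CAT3-2 had a summit 34 bp from its middle at 8.73. At TRM-CAT3-1 the nearest summit was 863 bp away. In both, 4.36% of the 50-mers around the gene were repeated. Of the other 3 identical sets, TRF-GAA1-1 and TRF-GAA1-2 both lacked a region as given above, and the members of the remaining sets all had one, TRR-CCG1-1 (5.32) and TRR-CCG1-2 (3.83), and TRA-AGC7-1 (5.86), TRA-AGC2-1 (5.21) and TRA-AGC2-2 (3.72).

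**Figure D5:**
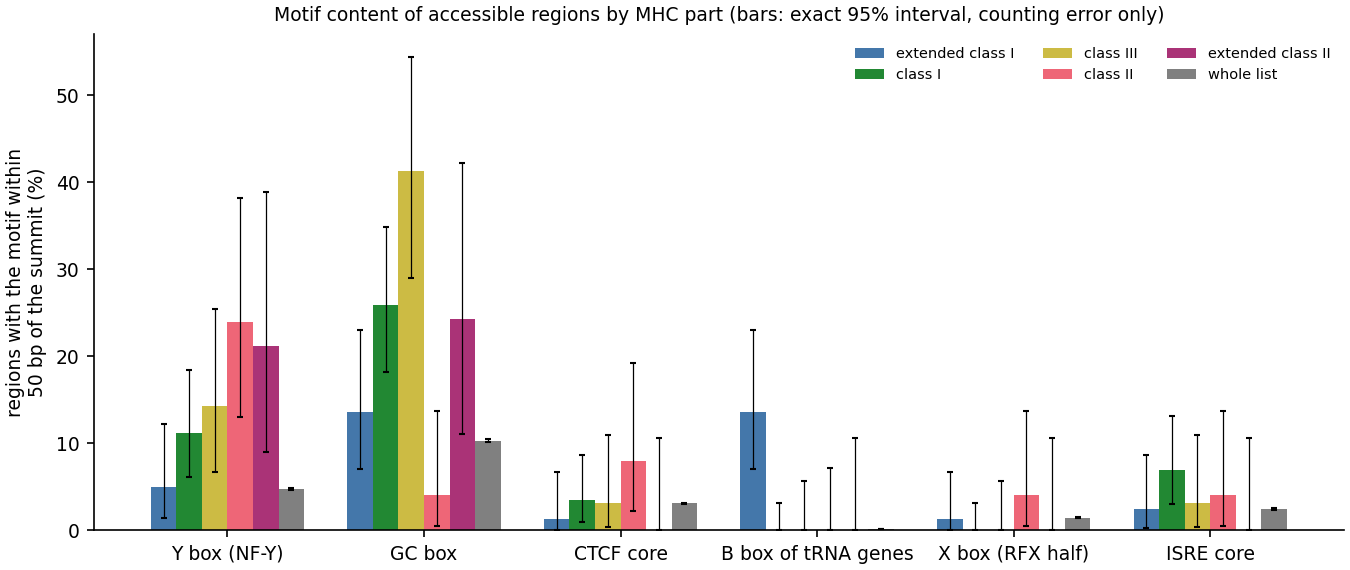
Share of regions with a motif within 50 bp of the summit, in each MHC part and the whole list, with 95% exact intervals for counting error. The Y box reaches 24% in class II, the GC box 41.3% in class III, and the B box of tRNA genes 13.6% in extended class I and 0 in the other parts.

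Motif letters at the summits differed between the parts. Motifs were searched on both strands within 50 bp of the summit, and a match describes letters, not binding. The B box lay at 13.6% of extended class I summits, 0 of the summits of the other parts and 0.121% of all. The GC box GGGCGG lay at 41.3% of class III summits (29.0 to 54.4), 22.4% of MHC summits and 10.3% of all. In class II it lay at 4% (0.488 to 13.7). At gene starts alone, where it is usual, the MHC (40.9%) and the whole list (39.1%) were alike within the interval of the former (33.0 to 49.3).

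The Y box GATTGG was more frequent in the MHC also among regions at gene starts. It lay at 13.1% of MHC summits (9.73 to 17.2) and 4.74% of all. At gene starts it lay at 35 of 149 MHC summits, or 23.5% (16.9 to 31.1), against 10.4% in the whole list, and away from starts at 5.15% (2.50 to 9.28) against 3.84%. Of 18 promoter regions at HLA genes or pseudogenes 11 held it (61.1%, 35.7 to 82.7), and of the 131 at other genes 24 did (18.3%, 12.1 to 26.0). The CTCF core was about as frequent in the MHC (3.21%, 1.61 to 5.67) as in the list (3.09%), and the ISRE core GAAANNGAA, an interferon response element, lay at 4.08% (2.25 to 6.75) against 2.44%. The OCT4-SOX2 composite lay at 0 of 343 summits, for an upper limit of 1.07%, and at 0.0686% of all.

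Other gene groups, all small, had accessible promoters at 14.3% to 83.3% of their genes, against 76.8% of all protein-coding genes. The zinc finger share, 83.3%, was near that of all genes. Of 7 TRIM genes, which encode ubiquitin ligases, 3 were accessible: TRIM27 (12.8), TRIM26 (11.1) and TRIM39 (5.39), while TRIM10, TRIM15 and TRIM31 had no summit at the canonical start. Of 6 zinc finger and related genes 5 were, led by ZBTB9 (12.97), SCAND3 (8.56) and ZBTB22 (7.67), and ZFP57, a factor of imprint maintenance, was the exception. Of 10 immune receptor and signalling genes 4 were, NFKBIL1 (8.75), IER3 (4.38), NCR3 (3.62) and LST1 (3.06), and AGER, AIF1 and BTNL2 were not. Of 7 genes of the LY6 group 1 was, LY6G5C (3.79), and LY6G5B, LY6G6C and LY6G6D were not. In the small mucin and neighbour group 1 of 5 was, VARS2 (9.85), a mitochondrial valyl-tRNA synthetase that is no skin or mucin gene. MUC21, MUC22 and MUCL3 were not.

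Long non-coding RNA genes were accessible more often than elsewhere. In the MHC 54 of 86 (62.8%, 51.7 to 73.0) had a region, against 37.0% of all. HCP5, which lies between MICA and MICB, had the highest fold, 15.8, in chr6:31462665-31463342 with the summit 110 bp before its start. PSMB8-AS1 shared the region of PSMB8 at 14.8. These RNAs were named after their values were seen, and many of their starts lie beside those of protein-coding genes.

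Away from gene starts, class I was led by chr6:30396701-30397454 (13.6), an intergenic region between RPP21 and the pseudogene MICC, and by an intronic region of a non-coding RNA upstream of HLA-E, chr6:30453555-30454057 (11.8), which held an ISRE core. Others were 11.4 at 1700 bp upstream of MUC21 and 10.5 near RPP21. In class III they were 11.3 at 2316 bp upstream of LY6G5C, 10.2 in an exon of TNXB, 9.82 upstream of GPSM3, 9.37 in LTB and 8.93 in an intron of TNXB. Extended class I had 12.2 at 6963 bp upstream of MOG, 10.9 at TRA-AGC5-1, 10.6 in an intron of GABBR1, 10.5 in a region that reaches over TRR-TCG5-1, where the summit at the tRNA gene itself had 4.82, and 10.1 upstream of ZNF311. Extended class II had the weakest of these, 8.71 near LYPLA2P1, 6.97 in TAPBP and 4.79 near HTATSF1P1.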

How the data were processed

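Per the labels' protocols, Omni-ATAC was run on thawed H1 cells, and per the submitters' processing notes the build was GRCh38. The sources used here do not name the aligner, caller, read shift or filters. The deposited list has 1 row per summit in the narrowPeak layout. The authors' deposited fold over background, −log10 p and score (about 10 times the −log10 p) were used as given, the fold to describe and rank, the −log10 p for 1 alternative, and neither the −log10 q nor the score for results. Rows with equal chromosome, start and end were 1 region, represented by its summit of highest fold. GENCODE 44 gave genes, RefSeq (GRCh38.p14) tRNA genes, and hg38 the sequences. Repeated and alternate 50-mers were counted on both strands. Part limits were the ends of MOG and MICB, the 5′ end of NOTCH4 and COL11A2. Intervals are exact at 95%. Scripts used Python 3.11.15, pandas 2.3.3, scipy 1.17.1 and pysam 0.24.0, and were tested on simulated data. The members and lists were chosen with earlier results of these data known. Genes named were all members of the HLA, class I-like, antigen processing, complement, TNF, HSP70 and regulator lists. For other lists they were the 3 of highest fold and the first 3 without a region. Regions named were the 5 strongest outside promoters, the 3 widest and the 3 longest empty stretches per part. List symbols outside the window or unmatched were left out, and a few items that these rules would name are not reported here. The X-Y composite, the CpG threshold, the tRNA comparison and the alternate 50-mers were added after seeing the data.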

Additional observations from a re-analysis of the deposited data

How the results depend on the processing

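No paired analysis was possible because there is 1 group and 1 list for both samples, and no replicate could be left out. Of 123 recomputed values 93 stayed within their interval or within 1.5 times and 30 moved. Shares of repeated sequence, which have no interval, and counts of 0 were taken as moved at any change. Counting every summit instead of regions raised the counts to 143 in extended class I, 214 in class I, 110 in class III, 82 in class II, 60 in extended class II and 609 in the MHC, and lowered the median fold to 4.47 in extended class I, 4.66 in class I, 4.80 in class III and 4.59 in the MHC. Summits above the list's median −log10 p left 50 regions in extended class I, and raised the median fold to 7.06 there, 6.87 in class I and 7.29 in the MHC. Outside promoters the median fold was 5.54 in class I and 5.43 in the MHC. With any annotated start 76.1% of class III genes were accessible. Within 100 bp the Y box lay at 21.3% and the GC box at 34.7% of MHC summits, a wider window that holds more letters. Words of 36 bases raised repeated sequence to 12.9% in extended class I, 14.6% in class I, 22.1% in class III, 12.3% in class II and 14.9% in extended class II. Complement genes with a promoter region numbered 2 with the outermost or any start and 0 under the stricter −log10 p, where LTB was lost as well, as it was within 500 bp. With a 500 bp window 1 phenylalanine tRNA gene had a summit. The list gives no depth per sample, so weak regions cannot be set against a detection limit.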
